A study of Mus musculus with 13 samples.

Results

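The genes described here are Trp53, which encodes the transcription factor p53, its paralogs Trp63 and Trp73, and 7 core regulators of p53: Mdm2, Mdm4, Trp53bp1, Usp7, Ppm1d, Atm and Chek2. They were taken by gene symbol from both deposited count tables, which list 24421 genes, and all 10 were found in each table and were among the 20044 genes tested. p53 is kept scarce in unstressed cells by Mdm2, a ubiquitin ligase that marks it for degradation and that is itself a p53 target gene, so that the pair forms a negative feedback loop. After DNA breaks the kinases Atm and Chek2 phosphorylate p53 and its inhibitors, p53 becomes stable and its target genes are transcribed, and the phosphatase Ppm1d later reverses these marks. Embryonic stem (ES) cells are known for abundant Trp53 mRNA and for frequent replication stress, and p53 in them is known to drive damaged cells out of self-renewal.

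The cells were of F1-2.1, a mouse ES line from a female CAST/Ei by 129/Sv/Jae hybrid, grown with LIF on γ-irradiated mouse embryonic fibroblast feeders. All 4 libraries come from clone A2, in which an integrated transgene makes CTCF S224E, a phosphomimetic form with glutamate in place of a serine, when doxycycline (dox) is present, while the endogenous CTCF genes are kept. The S224E_plus_dox group (+dox) was grown for 6 days in 1 μg/mL dox and the S224E_minus_dox group (−dox) was the same clone without dox, with 2 biological replicates in each group. The comparison asks which transcripts differ when the phosphomimetic CTCF is made. It rests on a single clone, and since cells given dox without this transgene were not analysed here, the effect of dox and that of the S224E protein cannot be told apart. RNA from cells with a transgene for unaltered CTCF was not analysed here either. The effect of added CTCF of any form and that of the glutamate substitution therefore cannot be told apart.

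Polyadenylated RNA gave 22899107 and 23136603 counted reads with dox and 30206085 and 24620964 without. Values below are counts per 1000000 counted reads (CPM) after TMM scaling, and log2 fold changes, standard errors (SE) and adjusted p-values come from edgeR's quasi-likelihood test over all genes tested, with a threshold of 0.01. Ctcf itself, which the transgene adds to, stood at 327 and 329 CPM with dox and 295 and 304 without (log2 fold change 0.13, SE 0.09, adjusted p = 0.475), and reads of the transgene and the endogenous genes were not separated here. The paper looked at reads over the changed codon and reported that a part of them encoded glutamate. It also reported the tagged protein by western blot. Genes that mark early differentiation, such as T (Brachyury), summed to 41.8 and 42.1 CPM with dox and 179 and 211 without. All 12 genes on that list had a negative log2 fold change. Of these, 8 were lower at the threshold of 0.01, against 104 of the 20044 genes tested. Genes that mark fibroblasts, such as Col1a1, summed to 1166 CPM in +dox replicate 1 against 539.8 (+dox replicate 2), 467 and 493 (−dox replicates), and 236 reads fell on chromosome Y genes in +dox replicate 1 against 67 to 76 in the other libraries. The cells are female, and +dox replicate 1 stands apart from the other 3 libraries in both measures, so results are also given without it. On the fibroblast list, 14 of the 16 genes had a positive log2 fold change, against 50.8% of all genes tested. Fbln1 (−0.62, at 29.0 and 33.9 CPM with dox and 47.7 and 48.7 without) and Tagln (−0.17) were negative. ES cell genes summed to between 6466 and 8074 CPM in each library, Pou5f1 among them at 949 to 1254 CPM. In RNA from a mixed culture, fewer cells of a type and less RNA per cell cannot be told apart.

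None of the 10 genes passed the adjusted p threshold of 0.01 in edgeR, where 0.599% of all genes tested passed, and 3 of the 10 had an unadjusted p under 0.05, against 17.8% of all genes. At an adjusted p under 0.05 there were 2, Trp53 and Mdm2, against 2.86% of all genes. DESeq2 at 0.01 also called 2, again Trp53 and Mdm2, both higher with dox, against 1.87% of all genes. Both +dox libraries lay above both −dox libraries for 3 genes, Trp53, Mdm2 and Trp73, against 23.3% of all genes tested. They lay below for 2, Atm and Trp63, against 23.7% of all genes. The 10 log2 fold changes had a median of 0.08, beside 0.01 for all genes tested, and 7 were above 0, against 50.8% of all genes.

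**Figure D1:**
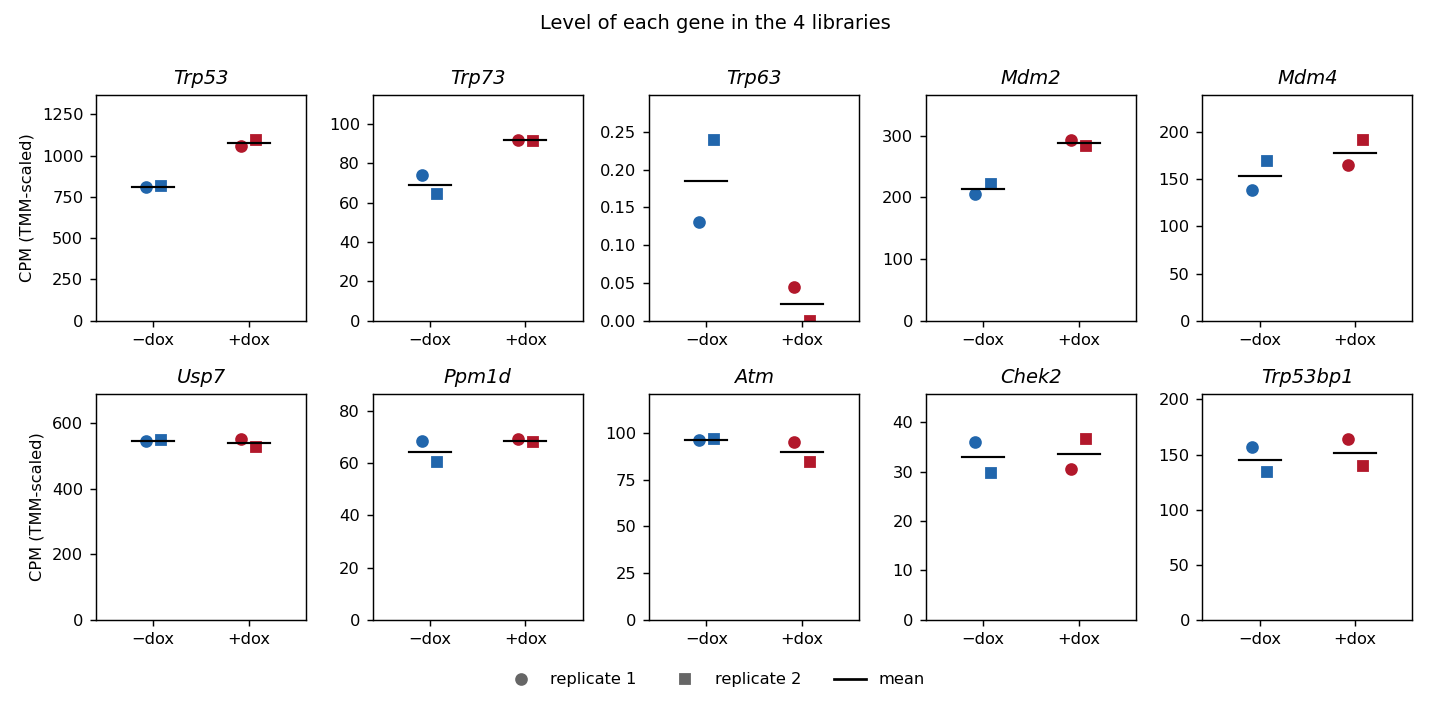
Level of each gene in CPM (a linear axis from 0, set for each panel) in the −dox (blue) and +dox (red) libraries, with circles for replicate 1, squares for replicate 2 and a bar at the mean. The +dox points of Trp53, Mdm2 and Trp73 lie above both −dox points, those of Mdm4, Trp53bp1, Usp7, Ppm1d and Chek2 overlap with the −dox points, those of Atm lie below, and Trp63 is at 0.239 CPM or less in all 4 libraries.

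Trp53 was the most abundant of the 10 transcripts. It lies on the plus strand at chr11:69393861-69405375 (mm9), and the listed transcript of 1855 nt, NM_001127233, spans the whole gene. It measured 1060.4 and 1093 CPM with dox and 809 and 816 CPM without. Both +dox values were higher, the groups did not overlap, and the difference between the group means of 1077 ± 22.8 and 812 ± 4.77 CPM (SD, n = 2 each) exceeded the spread within either group. The fold was 1.33 (log2 fold change 0.41, SE 0.08, 95% interval 0.24 to 0.58), and the replicates gave 0.39 and 0.42. The adjusted p was 0.0211 in edgeR and 7.35e-04 in DESeq2, so the call at 0.01 depends on the test. Without +dox replicate 1 the log2 fold change was 0.43, in a range of 0.38 to 0.43 with 1 library left out.

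Log2 fold changes over all genes varied with level and transcript length. Among genes with at least 10 CPM, the 154 with more than 256 CPM per kilobase of exon had a median log2 fold change of 0.20, whereas the 756 genes with 4 or less had a median of −0.15, and the 602 transcripts of 1000 nt or less had 0.16 against −0.16 for the 488 above 8000 nt. Trp53, at 580 ± 12.3 CPM per kilobase with dox and 438 ± 2.57 without, belongs to the most abundant class. With the trend on level removed from each library, a setting chosen after seeing the data, its log2 fold change was 0.20 (SE 0.09, adjusted p = 0.186). With the trend on transcript length removed it was 0.37 (adjusted p = 0.0249).

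**Figure D2:**
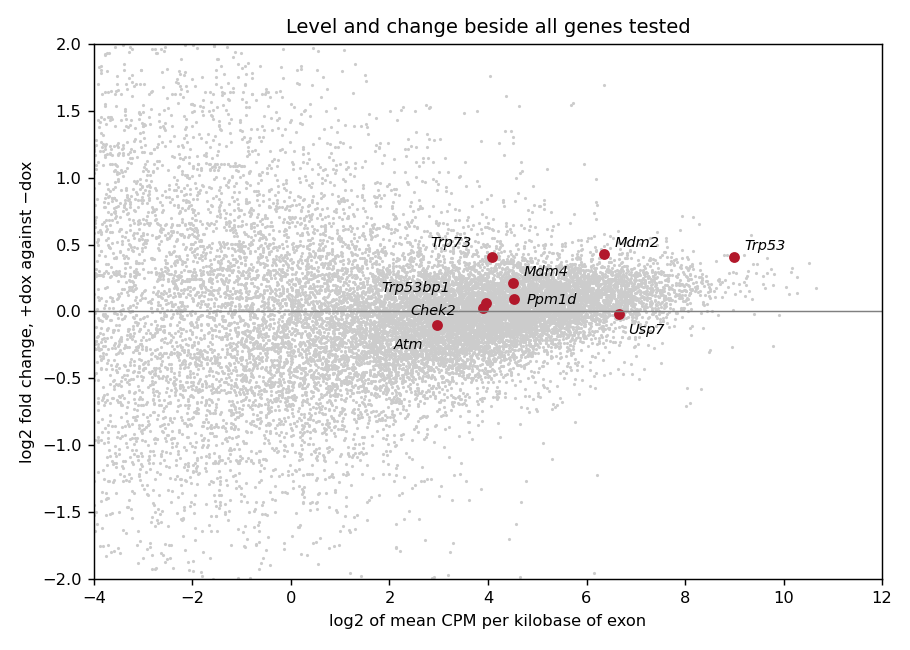
Log2 fold change of +dox against −dox (edgeR) against the log2 of the mean level in CPM per kilobase of exon, for all genes tested (grey) and the members (red, named). Trp63 and genes beyond the axis limits are not shown. The grey cloud tilts upward to the right, where Trp53 lies, and Mdm2, Trp53 and Trp73 lie highest of the named genes.

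p53 binds DNA as a tetramer, to a pair of decamers that each carry a central C and G. The p53 decamer was searched on both strands, as pairs separated by at most 13 bases with at most 3 mismatches over the 20 bases and the core C and G kept, in the 300 bases around the listed start of each gene (250 before, 50 after) and in the 300 bases before exon 2. A pair was found in 6 of the 20 windows, 3 of each kind, in 5 of the 10 genes: Trp53, Trp73, Mdm2, Mdm4 and Chek2. Such pairs are common by this rule, and 14.7% of 24346 promoter windows and 15.9% of 17201 windows before exon 2 over all genes held one. The share of genes with a pair in either window was not counted. The listed starts of Trp63, Usp7 and Trp73 lie 118.2, 54.0 and 43.0 kb inside the annotated genes. For these genes the start of the annotated gene was not searched. The 4 stretches are shown because they lie at the genes whose levels differed most between the groups and at Mdm4, where the match was closest, with the pair in capitals (NCBIM37, the mm9 assembly, 5′ to 3′ on the strand of the gene).
Trp53, before the start, chr11:69393726-69393860, plus strand: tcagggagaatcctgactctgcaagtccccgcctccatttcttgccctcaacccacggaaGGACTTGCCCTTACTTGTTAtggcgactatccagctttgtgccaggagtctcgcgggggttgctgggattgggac
Trp73, before the listed start, chr4:153471283-153471408, minus strand: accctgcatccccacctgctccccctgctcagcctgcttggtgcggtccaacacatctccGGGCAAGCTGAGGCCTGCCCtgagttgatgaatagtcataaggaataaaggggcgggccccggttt
Mdm2, first intron before exon 2, chr10:117147101-117147240, minus strand: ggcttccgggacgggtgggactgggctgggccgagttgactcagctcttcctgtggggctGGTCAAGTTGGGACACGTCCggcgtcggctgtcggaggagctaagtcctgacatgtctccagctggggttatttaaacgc
Mdm4, first intron before exon 2, chr1:134916009-134916097, minus strand: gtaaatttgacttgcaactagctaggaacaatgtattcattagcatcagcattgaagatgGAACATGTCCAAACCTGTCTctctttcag

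The windows of Trp53 and Mdm2 each held 2 qualifying pairs, and the one with the fewest mismatches and then the smallest gap is marked. The marked pair at Trp53 begins 75 bases before the start and has 3 mismatches. At Trp73 it begins 66 bases before the listed start and has 2, which 3.48% of all promoter windows reach. The marked pair at Mdm2 has 3 mismatches and begins 96 bases before exon 2, inside the first intron of 523 nt, where the p53-responsive promoter of Mdm2 is known to lie. The pair at Mdm4, 29 bases before exon 2 of an annotated transcript, has 1 mismatch, which 0.936% of the windows before exon 2 reach. No gap separates the decamers in these 4 pairs, which were picked as described. The pair before exon 2 of Chek2 has a gap of 11 bases and that in the promoter window of Mdm4 has 5. How often pairs over all genes lack a gap was not counted. A match describes the letters of the window, and binding of p53 was not measured in these libraries.

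Mdm2, on the minus strand at chr10:117125931-117147814, encodes the ligase that is both the main inhibitor and a target of p53. Its levels were 293 and 283 CPM with dox and 206 and 222 CPM without. Both +dox libraries were higher and the groups did not overlap (288 ± 6.83 against 214 ± 11.8 CPM, SD, n = 2 each). The fold was 1.35 (log2 fold change 0.43, SE 0.09, 95% interval 0.23 to 0.62), the replicates gave 0.51 and 0.35, and the adjusted p was 0.0289 in edgeR and 0.00233 in DESeq2. Without +dox replicate 1 the log2 fold change was 0.40, in a range of 0.37 to 0.48 with 1 library left out. With the trend on level removed it was 0.32 (adjusted p = 0.0268).

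The Mdm2 level per kilobase was 0.166 and 0.156 of that of Trp53 with dox and 0.153 and 0.164 without. The ratio overlapped between the groups, with means of 0.161 and 0.158, while the levels themselves differed 1.33-fold for Trp53 and 1.35-fold for Mdm2. Mdm2 exceeded Mdm4 per kilobase 4.20- and 3.49-fold with dox and 3.50- and 3.11-fold without, and these ratios overlapped between the groups (3.84 ± 0.498 against 3.31 ± 0.281, SD, n = 2 each).

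Trp73, on the minus strand of chromosome 4, encodes p73, a p53 paralog with full-length forms and with shorter forms that start inside the gene and lack the N-terminal activation domain. The listed transcript, NM_001126330, covers chr4:153430358-153471282, and its start lies 43.0 kb inside the annotated gene, which extends to position 153514317. Trp73 stood at 91.8 and 91.5 CPM with dox and at 73.9 and 64.5 CPM without. The +dox values were nearly equal, both were above the −dox values, and the group means were 91.6 ± 0.205 and 69.2 ± 6.63 CPM (SD, n = 2 each). The fold was 1.32 (log2 fold change 0.40, SE 0.11, 95% interval 0.17 to 0.64). The adjusted p was 0.0697 in edgeR and 0.0331 in DESeq2, above the threshold in both. Without +dox replicate 1 the log2 fold change was 0.40, in a range of 0.31 to 0.51 with 1 library left out. With the trend on level removed the adjusted p was 0.00795, with the log2 fold change at 0.42. Of the exonic bases annotated for Trp73, 280 of 5538 also lie in Gm13116 on the other strand, whose reads could not be told apart if the counting ignored strand.

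Trp63, which encodes the p63 protein of squamous epithelia and germ cells, was barely detected. The 4 libraries held 1 and 0 reads with dox and 4 and 6 reads without. The +dox libraries thus held 1 of 11 reads (9.09%, exact binomial 95% interval 0.230% to 41.3%, for counting error only), whereas they held 45.6% of all counted reads. The count tables list different transcripts for the gene, NM_011641 from 25802002 to 25892174 in replicate 1 and NM_001127261 from 25683851 to 25877229 in replicate 2 (chromosome 16, plus strand), so reads from different exons may have been counted. The adjusted p was 0.349, and no fold is given because the +dox group lies at or below 3 reads. Squamous epithelium genes (5 in the list) were near the detection limit as well, summing to between 1.31 and 2.31 CPM in each library.

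Mdm4 (chr1:134882682-134921993, minus strand), the Mdm2 partner that blocks p53's activation domain, was measured at 165 and 191 CPM with dox and 139 and 169 CPM without. The ranges overlapped, with the lower +dox library below the higher −dox library, and the log2 fold change was 0.21 (SE 0.12, 95% interval −0.04 to 0.46, adjusted p = 0.375). Usp7 (chr16:8688815-8738435, minus strand), the deubiquitinase that stabilises both Mdm2 and p53, had the smallest log2 fold change in size of the 10 genes. It measured 552 and 529 CPM with dox and 546 and 549.6 CPM without, and the log2 fold change of −0.02 (SE 0.08) had a 95% interval of −0.20 to 0.16.

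Trp53bp1 (chr2:121020571-121097143, minus strand) encodes 53BP1, a chromatin protein that gathers at DNA breaks. Its values were 164 and 139.8 CPM with dox and 156 and 134 CPM without, replicate 1 being higher in both groups, and the log2 fold change was 0.06 (SE 0.11, 95% interval −0.18 to 0.31, adjusted p = 0.799). Its exons share 2130 of 14164 annotated bases with Tubgcp4 on the other strand, so part of its count is uncertain. Ppm1d (chr11:85124756-85160573, plus strand), the phosphatase that is induced by p53 and dampens the damage response, was at 69.0 and 67.9 CPM with dox and 68.2 and 60.2 CPM without. The groups overlapped, and the log2 fold change was 0.09 (SE 0.11, 95% interval −0.15 to 0.34, adjusted p = 0.712). Ppm1d exceeded Atm per kilobase 2.99- and 3.31-fold with dox and 2.92- and 2.57-fold without, so that this ratio was higher in both +dox libraries. With the trend on transcript length removed, however, the log2 fold changes of the 2 genes were alike, 0.09 for Ppm1d and 0.08 for Atm.

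Of the damage kinases, Atm (chr9:53245227-53344776, minus strand) was at 95.2 and 84.5 CPM with dox and 96.3 and 96.7 CPM without. Both +dox values were lower, and the log2 fold change was −0.10 (SE 0.10, 95% interval −0.33 to 0.12, adjusted p = 0.676). The Atm transcript is 11898 nt long, and with the trend on transcript length removed the value was 0.08, so the direction turned. Chek2 (chr5:111269036-111303152, plus strand) was at 30.5 and 36.6 CPM with dox and 36.0 and 29.8 CPM without. Each group held 1 high and 1 low library, and the log2 fold change was 0.03 (SE 0.15, 95% interval −0.30 to 0.35, adjusted p = 0.955), with −0.24 in replicate 1 and 0.30 in replicate 2. The difference thus had opposite signs in the replicates.

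**Figure D3:**
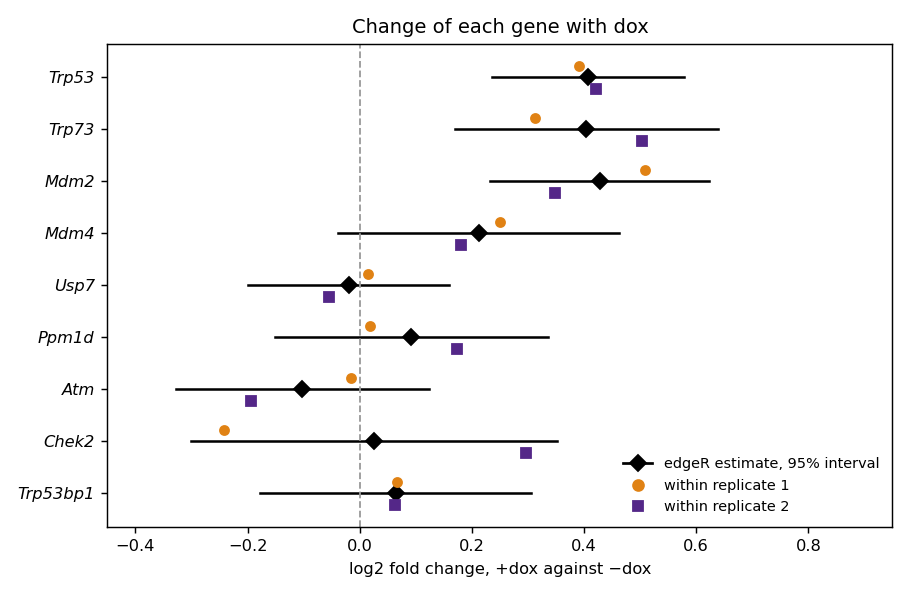
Log2 fold change of +dox against −dox from edgeR for 9 of the genes, as diamonds with lines for the 95% interval, and the differences within replicate 1 (circles) and replicate 2 (squares). The intervals of Trp53, Mdm2 and Trp73 lie above 0 and those of the other 6 genes include 0. Trp63, with 11 reads in all, is left out.

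Per kilobase of exon, the order with dox was Trp53 (580 CPM per kilobase), Usp7 (100.2), Mdm2 (93.3), Mdm4 (24.4), Ppm1d (23.7), Trp73 (19.3), Trp53bp1 (15.8), Chek2 (15.0), Atm (7.55) and Trp63 (0.00475). Without dox it was Trp53 (438 CPM per kilobase), Usp7 (101.5), Mdm2 (69.4), Ppm1d (22.2), Mdm4 (21.1), Trp53bp1 (15.1), Chek2 (14.8), Trp73 (14.6), Atm (8.11) and Trp63 (0.0645), so that Ppm1d and Mdm4 changed places and Trp73 came after Trp53bp1 and Chek2. The neighbours Mdm4 and Ppm1d overlapped between replicates in both groups, as did Trp53bp1 and Chek2. Trp73 overlapped with Trp53bp1 and Chek2 without dox and was above both with dox. Trp53 ranked at percentile 99.8 of the genes tested in this measure and Atm at percentile 60.7.

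The 5 genes whose pattern over the 4 libraries lay nearest to that of Trp53, among 9969 with at least 10 CPM, were Chst12, Stk16, Mmachc, 1810055G02Rik and Cd81. The measure was the largest difference in any library between log2 CPM values centred on each gene's mean, and it ran from 0.00676 for Chst12 to 0.0241 for Cd81. The measure rests on 4 libraries in 2 groups, and both +dox values were above both −dox values for 4665 of all genes tested.

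Genes that act around p53 were counted in 4 lists, 68 genes in all. At 0.01, 1 of them was called, against 0.599% of all genes tested. The list of known p53-induced genes held 22, of which 1 was called, Ephx1, which encodes microsomal epoxide hydrolase. Ephx1 was at 68.7 and 47.1 CPM with dox and 30.5 and 26.1 CPM without, both +dox values being higher, with a log2 fold change of 1.03 (SE 0.17, adjusted p = 0.00901). With total counts, filterByExpr, adjusted deviances, the trend on transcript length removed or either −dox library left out, 0 genes of the list were called. No gene of this list was lower at 0.01, and 4 were higher at 0.05, where 2.86% of all genes tested passed in either direction. DESeq2 at 0.01 called 4, all higher, against 1.87% of all genes in either direction. Ephx1 was more abundant in +dox replicate 1, the library with the highest fibroblast sum, than in +dox replicate 2, and the part of feeder RNA in its change was not tested.

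Cdkn1a, the p53-induced inhibitor of cyclin-dependent kinases, was at 261 CPM in both libraries with dox and at 190.3 and 189.9 CPM without. The log2 fold change was 0.46 (SE 0.09, adjusted p = 0.0196 in edgeR and 4.18e-04 in DESeq2), so the call at 0.01 differs between the tests. Ccng1 (log2 fold change 0.46, adjusted p = 0.0261 in edgeR and 0.00200 in DESeq2) and Phlda3, an inhibitor of Akt (0.51, adjusted p = 0.0190 and 4.97e-04), stood likewise between 0.01 and 0.05 in edgeR and under 0.01 in DESeq2. These 3 were not among the genes the naming rule takes and were chosen after their values were seen. In the same list Sesn1 (log2 fold change −0.32), Rrm2b (−0.28), Xpc (−0.24), Ddb2 (−0.17) and Pmaip1 (−0.02) were negative. Cdkn1a, Ccng1 and Phlda3 fall in the class of 64 to 256 CPM per kilobase. Its genes with at least 10 CPM had a median log2 fold change of 0.125. The median log2 fold change of the 22 was 0.28, 17 were positive, against 50.8% of all genes tested, and both +dox libraries were above both −dox libraries for 15 and below for 2, against 23.3% and 23.7% of all genes. The median was 0.24 without +dox replicate 1 and 0.28 with the trend on level removed. With that trend removed, 2 genes of the list were called higher and none lower, against 799 of the 20044 genes tested called in either direction.

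**Figure D4:**
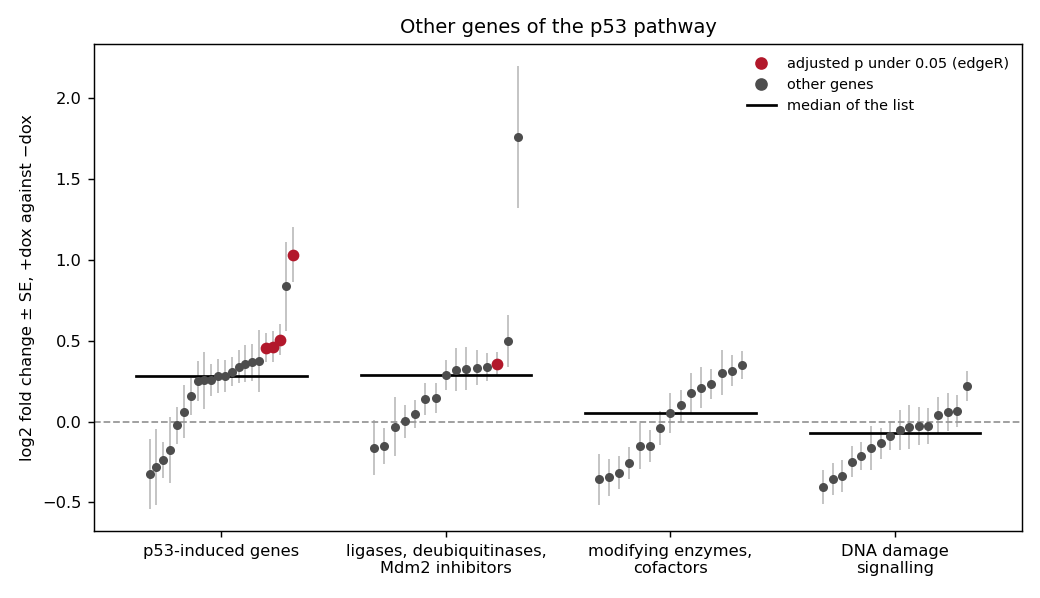
Log2 fold change of +dox against −dox (edgeR) for each gene of the 4 lists around p53, with 1 point a gene, vertical lines for the SE, the 5 genes with an adjusted p under 0.05 in red and a horizontal bar at the median of each list. The medians are 0.28 for p53-induced genes, 0.29 for ligases, deubiquitinases and Mdm2 inhibitors, 0.05 for modifying enzymes and cofactors and −0.07 for DNA damage signalling.

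Among 15 ubiquitin ligases, deubiquitinases and Mdm2 inhibitors none passed 0.01 in edgeR, and 8 had an unadjusted p under 0.05 (17.8% of all genes tested). DESeq2 called 1 (1.87% of all genes), Trim28, a corepressor that works with Mdm2. Trim28 was at 2387 and 2409 CPM with dox and 1918 and 1837 CPM without (log2 fold change 0.35, SE 0.07, adjusted p = 0.0296). The median of the list was 0.29, and 0.14 with the trend on level removed. Rpl11 (log2 fold change 1.76, adjusted p = 0.0547) and Gltscr2 (0.33, adjusted p = 0.0607) came next by p. Rpl11 was at 23.6 CPM in +dox replicate 1, the library that stands apart, against 6.26 CPM in +dox replicate 2 and 4.09 and 4.74 CPM without dox, and the replicates gave log2 fold changes of 2.50 and 0.40. It also has many processed copies in the genome, so its value is uncertain.

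Of 15 enzymes that modify p53 and cofactors, none passed 0.01 in edgeR or in DESeq2, 7 had an unadjusted p under 0.05 (17.8% of all genes tested) and the median was 0.05. Among those with the lowest p were Prmt5, an arginine methyltransferase (log2 fold change 0.35, adjusted p = 0.05002), and Trp53bp2, which encodes ASPP2 (−0.32, adjusted p = 0.118). Of 16 genes of DNA damage signalling, none passed 0.01 in either test, 6 had an unadjusted p under 0.05 (17.8% of all genes) and 4 were positive. The median was −0.07, and −0.04 with the trend on transcript length removed and −0.09 with the trend on level removed. Atr, the kinase that responds to stalled replication forks, was at 59.3 and 58.3 CPM with dox and 76.7 and 79.1 CPM without (log2 fold change −0.41, SE 0.11, adjusted p = 0.0629). Prkdc (−0.35, adjusted p = 0.0794) and Rad50 (−0.34, adjusted p = 0.0905) came next by p. Among all genes with at least 10 CPM, the median was −0.08 for transcripts of 4000 to 8000 nt and −0.16 above 8000 nt. The part of transcript length in the values of Atr, Prkdc and Rad50 was not tested.

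Relative to their −dox means, Trp53 was at 1.31 and 1.35 in +dox replicates 1 and 2, Mdm2 at 1.37 and 1.32 and Trp73 at 1.33 and 1.32. The summed fibroblast genes were at 2.43 and 1.13, the ES cell genes at 1.05 and 1.202 and the early differentiation genes at 0.214 and 0.216. The values of these 3 genes were close between the +dox replicates, and the part of feeder RNA in them was not tested. The early differentiation genes were lower in both +dox libraries, and their part in the levels of Trp53, Mdm2 and Trp73 was not tested.

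**Figure D5:**
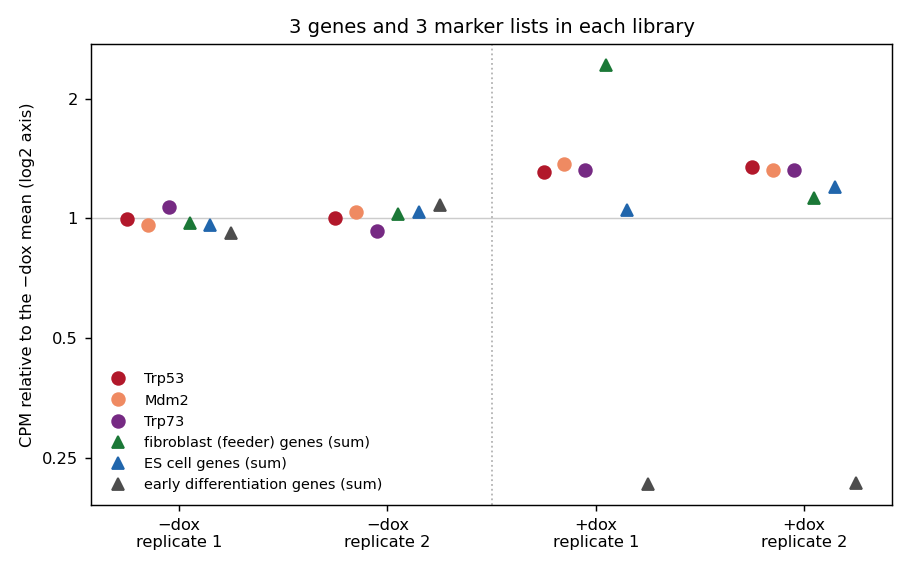
CPM relative to the −dox mean (log2 axis) in each library for Trp53, Mdm2 and Trp73 (circles) and for the summed CPM of fibroblast, ES cell and early differentiation genes (triangles). The circles lie between 1.31 and 1.37 in both +dox libraries, and the fibroblast sum is 2.43 in +dox replicate 1 and 1.13 in +dox replicate 2.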

How the data were processed

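Reads were trimmed (cutadapt) by the authors and mapped by TopHat2 to the mm9 assembly. Exon counts per gene were then made with HOMER from the uniquely mapped reads left after duplicate removal. The deposited values are raw read counts per gene, in a table for each replicate. Tool versions and use of the strand are not given in the sources used here, and reads of a hybrid genome were aligned to a single reference.

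Tables were joined by symbol (547 of 24421 genes have different transcripts in the tables), and a gene was tested if any library held 1 or more of its reads. The main test was that of edgeR 4.0.16 (run in R 4.3.3), with TMM scaling and its quasi-likelihood model, without a replicate block and with Benjamini-Hochberg adjustment and, after the study's methods, a threshold of 0.01. DESeq2 1.42.0 was the other test. Further alternatives were the replicate block, DESeq2's size factors, total counts, filterByExpr, adjusted deviances, a threshold of 0.05, each library left out and, chosen after seeing the data, each library's trend on transcript length or level removed. With 2 replicates a group, each p-value sets a difference against the spread between these libraries of 1 clone. That spread is estimated in part from the other genes.

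Members and lists were chosen with earlier results of these data known. Named are the members, called list genes or else the 3 with the lowest p in a list, some genes of each marker list, Ctcf, and the 5 genes nearest to Trp53. Cdkn1a, Ccng1, Phlda3 and the p53-induced genes with a negative log2 fold change are named outside this rule. For 1 gene that this rule takes, values are not reported here. Promoter and intron windows were read from NCBIM37 with GENCODE vM1 exons. ChIP-seq libraries were not used here.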

Additional observations from a re-analysis of the deposited data

How the results depend on the processing

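With 2 libraries a group, the number of genes called depends on the test. Over all genes, 120 were called at 0.01 (16 higher, 104 lower), against 375 with DESeq2, 786 with the replicate block, 11 with filterByExpr, 0 with adjusted deviances (3254 at an unadjusted p under 0.05), 573 at a threshold of 0.05, 799 with the trend on level removed (381 higher, 418 lower), and 0 to 992 with 1 library left out. None of the 10 members was called, against 2 with DESeq2, 2 with the replicate block, 2 at 0.05, 1 with the trend on level removed (Trp73), and 0 to 2 with 1 library left out (1 without +dox replicate 1, 2 without +dox replicate 2). Of the 68 list genes 1 was called, against 5 with DESeq2, 8 with the block, 5 at 0.05, 3 with the trend on level removed, 0 with total counts, filterByExpr, adjusted deviances or the trend on length removed, and 0 to 6 with 1 library left out. Under the replicate block the adjusted p was 2.81e-04 for Trp53 and 0.00191 for Mdm2. The shared replicate numbers do not mark a shared batch in the labels, and deviations of same-numbered libraries from their group means correlated at 0.196 over 13910 genes.

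Trp53, Mdm2, Trp73, Mdm4 and Ppm1d were positive under every alternative. Trp63 was negative under each that gave it a value, but all of these fits rest on the same 11 reads or fewer. With 1 library left out, Mdm4 ranged from 0.0761 to 0.361 and Ppm1d from 0.0045 to 0.186, in each case lowest without a −dox library (replicate 1 for Mdm4, replicate 2 for Ppm1d) and highest without the other. Log2 fold changes with the other sign were found for Trp53bp1 (−0.0558 without +dox replicate 1 and −0.0438 without −dox replicate 2, in a range of −0.0558 to 0.182 with 1 library left out), Usp7 (0.0847 with the trend on length removed and 0.0102 without +dox replicate 2, in a range of −0.0515 to 0.0102), Atm (0.0797 with the trend on length removed) and Chek2 (−0.0171 with total counts, −0.112 without +dox replicate 2 and −0.106 without −dox replicate 2, in a range of −0.112 to 0.172). Each of these 4 genes had an interval that includes 0, and the cause of these changes was not tested.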
